A study of Bos taurus with 4 samples.

Results

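Antisense transcripts lie across from a known gene, on the other DNA strand, and overlap its exons. The 1096 described here were listed in some but not all of 4 bovine skeletal muscles: an antisense transcript was kept when 1, 2 or 3 of the 4 muscle tables listed it. They made up 43.6% of the 2516 antisense transcripts and belonged to a collection of 63845 noncoding transcripts of all classes. They carried 827 gene names at 1062 loci. Listing in a table chose them, so the pattern of listing is given as a description and supports nothing by itself.

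The animals were Hereford females of 18 months from 1 feedlot, fed wet corn silage. Total RNA of 3 animals was mixed in equal amounts for each muscle, and the 4 muscles were the longissimus thoracis of the back, a scapula muscle of the shoulder, the gluteus of the rump and an intercostal muscle of the rib cage. Sex, breed, age, feed and pooling were shared by every library, and each muscle had 1 library, so no difference between muscles has a replicate check and no test was made. The spread between animals is not visible in a pool, and fewer cells of a type and less RNA per cell cannot be told apart in whole muscle.

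Transcription of the opposite strand is common at mammalian genes. An antisense RNA can start from a promoter shared with the gene, from an enhancer inside it, or by read-through of a converging neighbour, and some antisense RNAs regulate the gene they overlap while many have no known role. Small nucleolar RNAs and microRNAs are mostly cut out of the introns of longer host transcripts. At their genes an antisense RNA overlaps the small RNA, and whether it also overlaps exons of a messenger RNA is not known here. No source used here says whether the libraries and the counting kept strand. Reads of a gene and of its antisense partner cannot therefore be told apart, and each value below is the value of the transcript as deposited. Sequences and coordinates of the transcripts were not used here.

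Levels are in FPKM, which scales the reads of a transcript by its length and by the total of its library. Sums over transcripts are in RPM, which scales by the library total alone. The values were ratios of whole reads, which gave library totals of 2132255 reads for the longissimus, 1511933 for the scapula muscle, 1107493 for the gluteus and 1318644 for the intercostal muscle. Reads on listed transcripts came to between 99.0% and 103% of these totals, so FPKM here is relative to reads on noncoding candidates. Lengths and reads per transcript are the smallest that the values allow. The 95% intervals are Poisson intervals on those reads and cover counting error only, since reads copied by PCR are not independent molecules. The 6 antisense transcripts named for contractile and sarcomere genes took from 44176 RPM in the longissimus to 80396 in the intercostal muscle. Transcripts not listed count as 0 there, and with no other tissue beside it this sum is no check of the tissue.

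The partly listed antisense transcripts had lower FPKM and smaller recovered lengths than those listed in every muscle. Their median recovered length was 292 bases, against 1203 bases for the 1420 antisense transcripts listed in every muscle. For 207 of them the recovered length was under 200 bases. The median was 218 bases for listing in 1 muscle, 308 in 2 and 438 in 3. Since fewer listing libraries give a smaller recovered length, these values do not show that the transcripts are shorter. Median FPKM among listed values was 30.8 in the longissimus, 24.2 in the scapula muscle, 30.6 in the gluteus and 28.2 in the intercostal muscle, while the antisense transcripts of every muscle had medians from 73.7 to 84.6. The partly listed transcripts held 0.795% of recovered antisense reads in the longissimus, 1.94% in the scapula muscle, 1.66% in the gluteus and 1.39% in the intercostal muscle. In the library where they were highest, 58 had 1 recovered read, 118 had 3 or fewer, 813 had at least 10 and 30 had at least 100. Of their gene names, 659 of 827 (79.7%) matched protein-coding genes of the RefSeq table and 16 matched microRNA genes, while 152 had no match.

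The scapula muscle listed the most of them and the longissimus the fewest. The scapula muscle listed 692 (63.1%), the intercostal muscle 520 (47.4%), the gluteus 463 (42.2%) and the longissimus 393 (35.9%), although the longissimus library was the deepest. Listing in 1 muscle accounted for 466 transcripts, in 2 muscles for 288 and in 3 muscles for 342. The most common of the 14 patterns was listing in every muscle but the longissimus, with 215 transcripts of 209 genes. The opposite pattern, listing in the longissimus alone, held 162 transcripts of 110 genes, and the scapula muscle alone held 150.

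**Figure D1:**
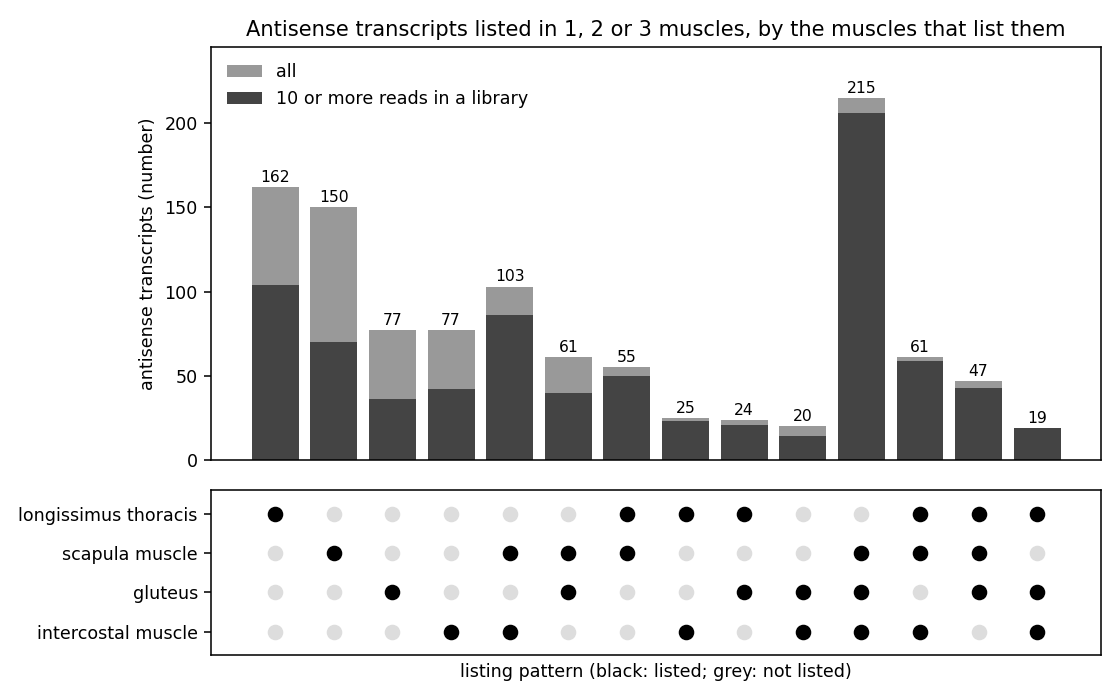
Number of partly listed antisense transcripts (vertical axis) for each of the 14 listing patterns, with black dots below each bar for the muscles that list them and the dark part of a bar for transcripts with 10 or more reads in a library. The tallest bar is the 215 transcripts listed in every muscle but the longissimus, of which 206 reached 10 reads, while 104 of the 162 transcripts of the longissimus alone did.

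Some of these gaps had many reads expected at the level of the listing muscles, and others had few at the recovered lengths. The filter behind the listing is not given, so a transcript that is not listed may have had reads in that library. What made a gap was not tested. For each gap, the lowest FPKM among the listing muscles was turned into the reads it would give in the muscle that does not list the transcript. At least 20 reads were expected for 202 of the 703 transcripts not listed in the longissimus, 52 of 404 in the scapula muscle, 27 of 633 in the gluteus and 44 of 576 in the intercostal muscle. Among all antisense transcripts with that expectation, those counts were 14.1% in the longissimus, 4.16% in the scapula muscle, 2.52% in the gluteus and 3.74% in the intercostal muscle. Over transcripts of all classes the shares were 57.8%, 37.0%, 31.5% and 39.5%. The rule used listing, so nothing is read from these shares. The median expectation was 11.3 reads in the longissimus and 5.19 in the gluteus. These are lower bounds, so they do not show which single gaps lay within the depth of a library.

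**Figure D2:**
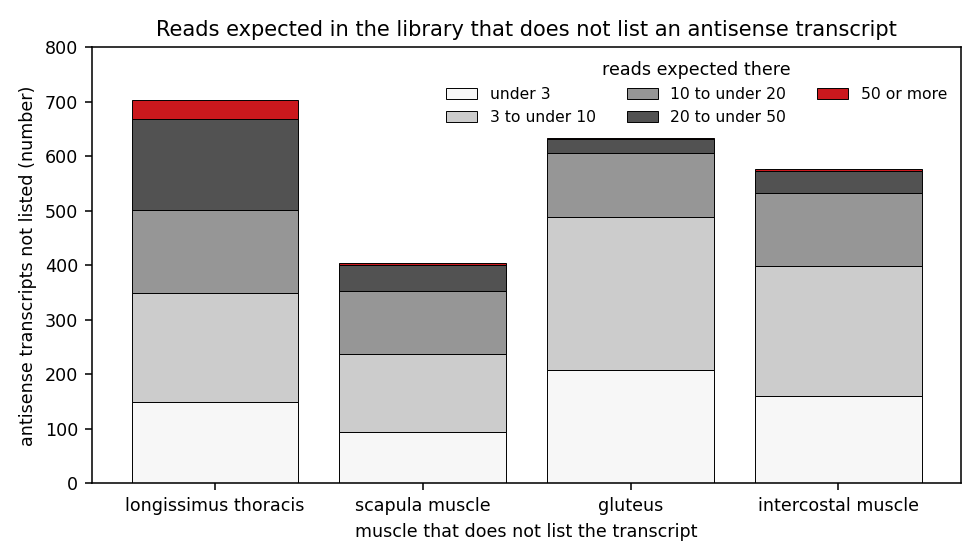
Number of partly listed antisense transcripts not listed in each muscle (vertical axis), divided by the reads expected there from the lowest FPKM of the muscles that list them. The red part, 50 or more expected reads, holds 35 transcripts in the longissimus, 3 in the scapula muscle, 1 in the gluteus and 3 in the intercostal muscle.

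The transcripts with 50 or more reads expected in a library that did not list them numbered 37, of which 33 are shown here by gene symbol. These are named although most lie outside the naming rule, and they were picked by that expectation after values were seen. The longissimus did not list 32 of the 33, and 22 of them were listed in each of the other muscles. Among those 22, the gluteus value had an interval above both other intervals in 9 and below both in 2. The intercostal value was below both others in 6 and above both in 2, and the scapula value was above both in 2 and below both in 0. For 5 of the 22 the 3 intervals overlapped. Over all 215 transcripts listed in every muscle but the longissimus, the gluteus was above both others in 38 and below in 14. The intercostal muscle was above in 22 and below in 28, and the scapula muscle above in 18 and below in 11. The 3 intervals overlapped in 60 of the 215. These counts were not made over other transcripts, so nothing particular to the set is read from them.

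Some of the highest of these lie across from structural RNA genes. The one opposite SNORA74, a small nucleolar RNA that guides pseudouridylation, stood at 1326 FPKM in the scapula muscle, 1762 in the gluteus and 1023 in the intercostal muscle, and was not listed in the longissimus, where 450.0 reads were expected. The gluteus interval lay above the other intervals and the intercostal interval below them. The transcript across from 5_8S_rRNA, part of the large ribosomal subunit, stood at 334 FPKM in the scapula muscle, 703 in the gluteus and 73.4 in the intercostal muscle, with 125 reads expected in the longissimus. Its 3 intervals did not overlap, and the gluteus was 9.59-fold the intercostal muscle. Reads of structural RNAs with near-identical copies may be split between copies, so these values are uncertain. SCARNA21, a Cajal body RNA, had its antisense transcript at 805 FPKM in the scapula muscle, 360.5 in the gluteus and 270.4 in the intercostal muscle, with the scapula muscle above both others and 149 reads expected in the longissimus.

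Other genes act in signalling and metabolism. The antisense transcript of AKT2, a kinase of insulin signalling that drives glucose uptake in muscle, was listed at 67.4 FPKM in the scapula muscle, 138 in the gluteus and 79.3 in the intercostal muscle. The scapula and intercostal intervals overlapped and the gluteus lay above both, and 159 reads were expected in the longissimus. That of ABHD5, the co-activator of the lipase that starts triglyceride breakdown, stood at 77.2 FPKM in the scapula muscle, 155 in the gluteus and 112 in the intercostal muscle. Scapula and gluteus did not overlap, and the intercostal value lay between them and overlapped both. That of IMPA2, an inositol monophosphatase, had the largest recovered length of the set, 2522 bases. It stood at 30.7 FPKM in the scapula muscle, 17.2 in the gluteus and 120.0 in the intercostal muscle, and 92.4 reads were expected in the longissimus. Here the intercostal muscle was highest and the gluteus lowest, with no overlap.

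ERLIN2, a protein of the endoplasmic reticulum membrane that takes part in degrading the inositol trisphosphate receptor, had the same muscle highest. Its antisense transcript stood at 54.4 FPKM in the scapula muscle, 43.5 in the gluteus and 108 in the intercostal muscle, and the first pair overlapped. CYB5D2, a heme-binding protein of the cytochrome b5 family, had its antisense transcript at 85.3 FPKM in the scapula muscle, 49.6 in the gluteus and 107 in the intercostal muscle. Only the gluteus stood apart there, below the overlapping values of the other listing muscles.

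Some genes act on chromatin or RNA. Across from BRD2, a bromodomain protein that binds acetylated histones, the transcript stood at 90.2 FPKM in the scapula muscle, 153 in the gluteus and 39.7 in the intercostal muscle, with no overlap among them. The transcript of RBBP6, a ubiquitin ligase that takes part in messenger RNA 3′ end formation, was at 65.5 FPKM in the scapula muscle, 84.7 in the gluteus and 41.8 in the intercostal muscle, and the intercostal value was below the others. Both had over 100 reads expected in the longissimus, 110 for BRD2 and 136 for RBBP6. Across from EIF2C2, the older symbol of an Argonaute protein that carries microRNAs, the transcript stood at 80.8 FPKM in the scapula muscle, 127 in the gluteus and 74.5 in the intercostal muscle. FUSIP1, the older symbol of a serine and arginine rich splicing regulator, had its transcript at 36.8 FPKM in the scapula muscle, 70.8 in the gluteus and 37.4 in the intercostal muscle. In both, the gluteus lay above the other values, which overlapped.

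The transcript across from PPDPF, named for a factor of pancreas development, stood at 156 FPKM in the scapula muscle, 311 in the gluteus and 103 in the intercostal muscle, with no overlap. C15orf59 had its transcript at 72.7 FPKM in the scapula muscle, 185 in the gluteus and 80.6 in the intercostal muscle, with the gluteus above both others. Other transcripts had intervals that overlapped across the listing muscles, which does not show that their levels were equal. SPRYD3 had 43.3 FPKM in the scapula muscle, 47.2 in the gluteus and 46.5 in the intercostal muscle, and MZF1, a zinc finger factor of blood cell precursors, had 34.6, 30.9 and 28.6. The 3 intervals overlapped for each of these, and also for DAAM2, a formin-family protein of Wnt signalling and actin assembly, at 55.0, 45.6 and 36.8 FPKM. They also overlapped for CHKB, a choline kinase, at 193 FPKM in the scapula muscle, 266 in the gluteus and 179 in the intercostal muscle. With 111 reads expected for SPRYD3, 71.1 for MZF1, 79.2 for DAAM2, 125 for CHKB and 86.0 for C15orf59, the longissimus listed none of these transcripts.

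**Figure D3:**
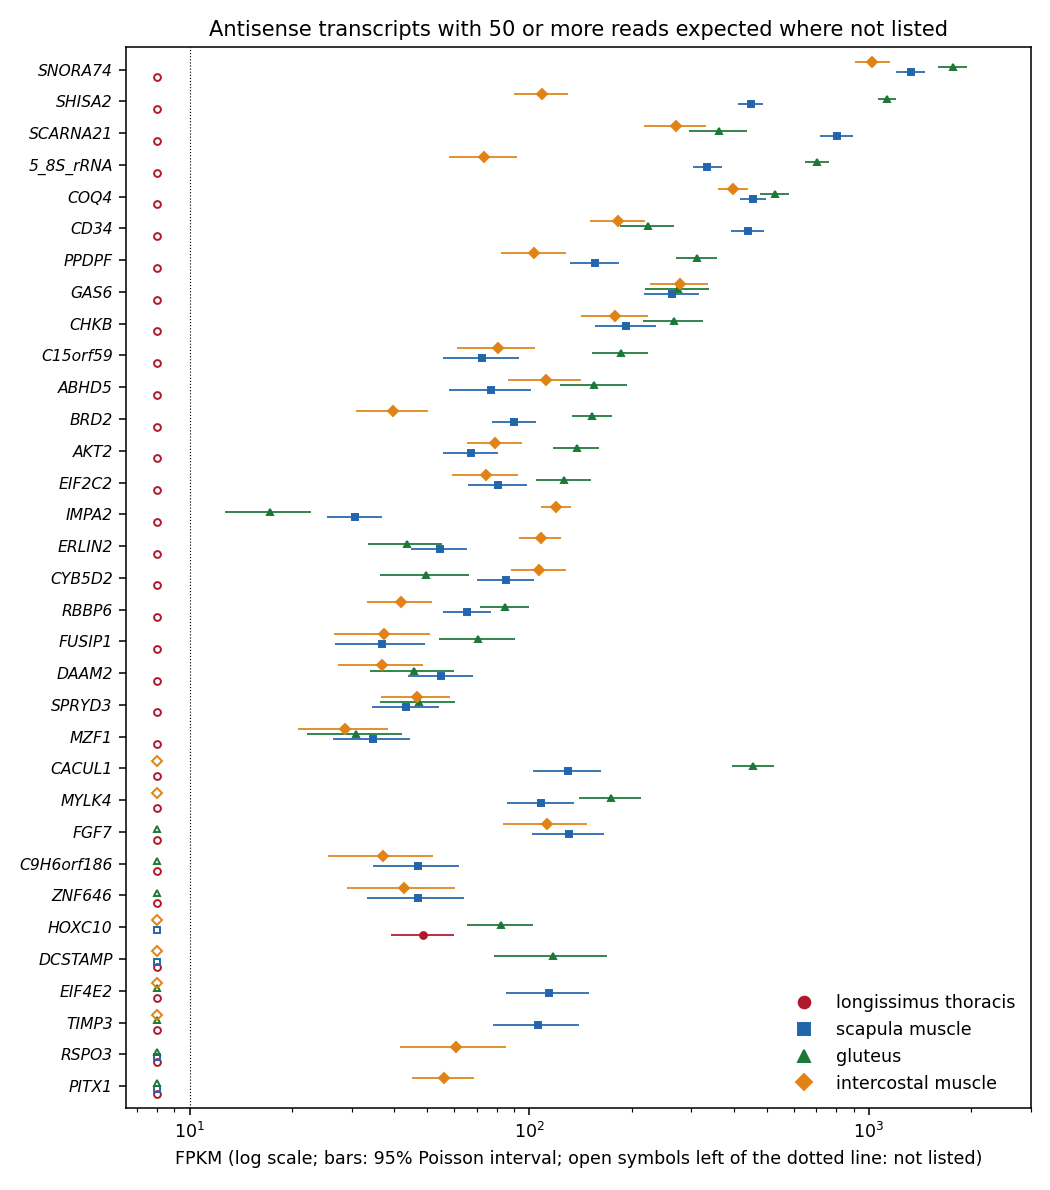
FPKM on a log scale (horizontal axis) of 33 antisense transcripts with a gene symbol and 50 or more reads expected in a library that does not list them, with 1 symbol per muscle, bars for the 95% Poisson interval and open symbols for muscles that do not list the transcript. Open symbols of the longissimus stand in 32 of the 33 lines, and the gluteus is the upper value in most of the upper lines, as for SHISA2 at 1127 FPKM against 109 in the intercostal muscle.

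Position genes mark regions of the body in the embryo, and many stay active in adult muscle. Of 11 antisense transcripts named for genes of the position list, 7 were partly listed (63.6%, beside 43.6% of all antisense transcripts). The antisense transcript of HOXC10, a homeobox gene of the lumbar and hindlimb region, was listed at 48.7 FPKM in the longissimus (95% interval 39.2 to 59.8, 91 reads) and 82.5 in the gluteus (65.4 to 103, 80 reads). It was not listed in the scapula muscle, where 64.5 reads were expected, nor in the intercostal muscle, where 56.3 were. It was the transcript of largest expectation in the scapula muscle after that of PITX1. PITX1, a hindlimb homeobox gene, had its antisense transcript in the intercostal muscle alone, at 55.9 FPKM from 93 reads, with 150 reads expected in the longissimus, 107 in the scapula muscle and 78.1 in the gluteus.

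The other position genes differed in their listing patterns. The antisense transcript of HOXD4, a homeobox gene of the neck region, stood at 41.1 FPKM in the scapula muscle (29.7 to 55.4, 43 reads) and 7.83 in the gluteus (2.87 to 17.0, 6 reads), and the intervals did not overlap. At the gluteus level 11.6 reads were expected in the longissimus and 7.14 in the intercostal muscle. Its neighbour HOXD3 had 1 recovered read, in the scapula muscle. HOXC11 was listed in the gluteus alone, at 38.5 FPKM from 11 reads. HOXA5 reached 22.5 FPKM in the gluteus from 15 reads, against 4 reads in the scapula muscle and 1 in the intercostal muscle. ZIC1 had 1 recovered read, in the longissimus. These last transcripts are given because the list is short, not by the naming rule.

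Of 12 antisense transcripts of growth factor and cytokine genes, 7 were partly listed (58.3%). The longissimus listed 2 of them, ANGPT2 from 1 recovered read and FGF11 from 7, both lower bounds. FGF6 is a growth factor made mainly by muscle fibres and linked to regeneration. Its antisense transcript stood at 15.6 FPKM in the scapula muscle (10.1 to 23.0), 34.9 in the gluteus (25.1 to 47.4) and 70.1 in the intercostal muscle (56.9 to 85.4), and 35.3 reads were expected in the longissimus. None of its intervals overlapped, and the intercostal value was 4.49-fold the scapula value. BMP6, a bone morphogenetic protein that also controls iron balance through hepcidin, had its antisense transcript at 29.9 FPKM in the scapula muscle and 63.3 in the gluteus. The intervals, 20.3 to 42.5 and 46.7 to 83.9, did not overlap, and 43.7 reads were expected in the longissimus and 27.0 in the intercostal muscle.

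FGF7, a fibroblast factor that acts on epithelia, had its antisense transcript at 131 FPKM in the scapula muscle and 112 in the intercostal muscle, with overlapping intervals, and with 82.5 reads expected in the longissimus and 42.8 in the gluteus. GAS6, which activates the AXL family of receptors, was level at 263 FPKM in the scapula muscle, 274 in the gluteus and 277 in the intercostal muscle, with overlapping intervals and 161 reads expected in the longissimus. FGF11, which acts inside cells and is not secreted, stood at 10.4 FPKM in the longissimus, 35.7 in the scapula muscle and 36.1 in the intercostal muscle. It had at most 17 recovered reads in a library, and WNT5A at most 3. RSPO3, a secreted enhancer of Wnt signalling outside that list, was listed in the intercostal muscle alone at 60.6 FPKM from 33 reads, with 53.4 reads expected in the longissimus and 37.8 in the scapula muscle.

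Markers of cell types other than fibres had few antisense transcripts. The lists for adipocytes, leukocytes, nerve and Schwann cells, satellite cells and erythroid cells had 0 antisense transcripts in any muscle, so these cells could not be followed here. The endothelium list had 3, of which CD34 and SOX18 were partly listed. CD34, a surface sialomucin of endothelium and of some stromal cells, stood at 439 FPKM in the scapula muscle, 223 in the gluteus and 182 in the intercostal muscle, where SOX18, an endothelial transcription factor, stood at 13.6, 29.1 and 42.3. Neither was listed in the longissimus, and the 2 did not share an order: CD34 was highest in the scapula muscle and SOX18 lowest there. All 3 antisense transcripts of endothelial markers together held 16.9 RPM in the longissimus, 367 in the scapula muscle, 277 in the gluteus and 255 in the intercostal muscle. The longissimus listed 1 of the 3, and transcripts not listed count as 0. Its sum thus carries the listing that chose CD34 and SOX18 and ranks nothing beyond it. Of 3 smooth muscle and pericyte transcripts, that of HIGD1B was partly listed, with 5 reads in the scapula muscle, 11 in the gluteus and 8 in the intercostal muscle. Of 4 fibroblast and matrix transcripts, only FGF7 was. The part of these cells in any pattern was not tested.

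The fibre gene lists held few antisense transcripts, with shares to be set beside 43.6% of all. Of 6 antisense transcripts of contractile genes (33.3%), those of MYLK4, a member of the myosin light chain kinases, and PDLIM5, a Z-disc adaptor, were partly listed. The MYLK4 transcript stood at 108 FPKM in the scapula muscle and 174 in the gluteus with intervals that did not overlap. PDLIM5 had 7 recovered reads in the longissimus alone. Of 11 mitochondrial and oxidative transcripts (18.2%), COQ4, an organizer of coenzyme Q synthesis, and PPARGC1B, a co-activator of mitochondrial genes, were partly listed. COQ4 stood at 456 FPKM in the scapula muscle, 527 in the gluteus and 398 in the intercostal muscle, with 602 reads expected in the longissimus, the largest expectation of all, and PPARGC1B at 19.9 and 29.6 in the scapula muscle and gluteus. Of 11 mitochondrial translation transcripts, 4 were partly listed (36.4%): 1 of MRPL52 and 3 of GFM1, the mitochondrial elongation factor G. The GFM1 transcripts differed in pattern, with 1 in the longissimus alone (34.8 FPKM), 1 in the scapula muscle and gluteus (17.2 and 54.7 FPKM) and 1 in every muscle but the gluteus (3.72, 8.75 and 24.1 FPKM). Of 3 myogenic regulator transcripts, MEF2C had 1 recovered read in the gluteus.

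Both partly listed histone transcripts, of 4, had large contrasts in level. H1FX, a linker histone variant, had its antisense transcript at 135 FPKM in the scapula muscle, 172 in the gluteus and 35.3 in the intercostal muscle, and was not listed in the longissimus. H2AFZ, the H2A.Z variant found around active promoters, had the longissimus highest: 152 FPKM in the longissimus from 86 reads, 6.81 in the gluteus from 2 reads, 2.86 in the intercostal muscle from 1 read, and no listing in the scapula muscle. The longissimus interval for H2AFZ, 122 to 188, lay above both others. Of 11 immediate early and stress transcripts, 2 were partly listed: CSRNP1, at 117 FPKM in the gluteus against 8.96 in the scapula muscle and 4.80 in the intercostal muscle, and IER5, at 144 in the intercostal muscle against 22.2 in the scapula muscle.

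Large gene families differed in the share that was partly listed, with no test of the difference. Partly listed were 40 of 87 ZNF zinc finger transcripts (46.0%), 17 of 40 solute carrier transcripts (42.5%) and 17 of 62 transcripts of ubiquitin enzyme, F-box, TRIM, RNF and Kelch genes (27.4%), beside 43.6% of all. Of those 17 ubiquitin and F-box transcripts the longissimus listed 3, the scapula muscle 9, the gluteus 10 and the intercostal muscle 13, where over the whole set the shares were 35.9%, 63.1%, 42.2% and 47.4%. ZNF646 stood at 46.8 FPKM in the scapula muscle and 42.7 in the intercostal muscle, with 50.1 reads expected in the longissimus. SLC16A5, a monocarboxylate transporter family member, stood at 136 FPKM in the scapula muscle, 233 in the gluteus and 38.6 in the intercostal muscle, with no overlap. SLCO5A1, an organic anion transporter family member, was at 107 FPKM in the scapula muscle and 66.5 in the intercostal muscle, and SLC26A7, an anion exchanger, in the intercostal muscle alone at 112. KLHL6, known from B cells, was at 77.7 FPKM in the intercostal muscle against 4.05 in the scapula muscle and 11.0 in the gluteus.

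Small RNA genes formed a larger group. Of 81 antisense transcripts named for small nucleolar and Cajal body RNAs, 47 were partly listed (58.0%), 18 of them in the longissimus, 37 in the scapula muscle, 25 in the gluteus and 23 in the intercostal muscle. Over the whole set those shares were 35.9%, 63.1%, 42.2% and 47.4%. The longissimus was the only muscle without the transcript for 14 of the 47, the intercostal muscle for 6 and the gluteus for 2, beside 215, 47 and 61 of the 1096. With 1 transcript per gene name the 47 became 29, since names such as SNORD113 are shared by many copies. Of 32 transcripts named for microRNA genes, a list added after values were seen, 17 were partly listed (53.1%). The longissimus listed 2 of these 17, the scapula muscle 14, the gluteus 9 and the intercostal muscle 16. Of the 17, 13 had 10 or more reads in a library, and in the longissimus 2 of the 15 it did not list had 20 or more reads expected.

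The microRNA transcript with the most reads was that of bta-let-7i, a member of the let-7 family that restrains growth genes. It stood at 63.0 FPKM in the scapula muscle from 89 reads, 2.90 in the gluteus from 3 reads and 21.9 in the intercostal muscle from 27 reads, and none of the intervals overlapped. The transcript of bta-mir-30a, whose family is abundant in muscle, was at 76.0 FPKM in the scapula muscle, 33.0 in the gluteus and 41.6 in the intercostal muscle, with 27.0 reads expected in the longissimus. That of bta-mir-142, a microRNA of blood cells, was at 119 FPKM in the gluteus against 15.5 in the scapula muscle and 4.43 in the intercostal muscle. Its gluteus interval, 86.7 to 159, lay above the others. The transcript of bta-mir-1-1, a muscle microRNA, had 16 reads in the scapula muscle, 13 in the gluteus and 1 in the intercostal muscle. The longissimus was highest for bta-mir-6527, with 57.8 FPKM from 81 reads in the longissimus, 19.6 in the intercostal muscle and 1 read in the scapula muscle. The microRNA transcripts named here lie outside the naming rule and were chosen after their values were seen.

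Of the 47 small nucleolar and Cajal body transcripts, 34 were listed in 2 or 3 muscles. The highest value was in the gluteus for 12 of the 24 it listed, in the scapula muscle for 9 of 32, in the intercostal muscle for 8 of 21 and in the longissimus for 5 of 13. Over the 215 transcripts of all genes missing in the longissimus alone, the gluteus was also most often highest, for 88. A high gluteus value is thus not particular to small nucleolar RNA genes. The examples that follow were chosen after their values were seen. Across from SNORA50, the transcript stood at 256 FPKM in the gluteus from 224 reads, 16.7 in the scapula muscle from 20 reads and 9.59 in the intercostal muscle from 10 reads. SNORA28 was at 129 FPKM in the gluteus against 11.4 in the longissimus and 12.1 in the scapula muscle, and SNORA32 at 152.5 in the gluteus against 35.2 and 26.6 in the same muscles. In all 3 the gluteus interval lay above those of the other listing muscles, and SNORA28 and SNORA32 were not listed in the intercostal muscle. SNORD30 ran the other way, at 80.0 FPKM in the scapula muscle and 63.2 in the intercostal muscle against 9.71 in the gluteus. SNORA3 was level, at 23.4 FPKM in the scapula muscle, 28.2 in the gluteus and 25.2 in the intercostal muscle. SNORD79 was listed in the longissimus alone, at 40.7 FPKM from 47 reads. SNORD113, a name shared by many copies of an imprinted cluster, had 16 partly listed transcripts, 10 each in the longissimus and scapula muscle, 4 in the gluteus and 1 in the intercostal muscle. These copies share sequence, so their values are uncertain.

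**Figure D4:**
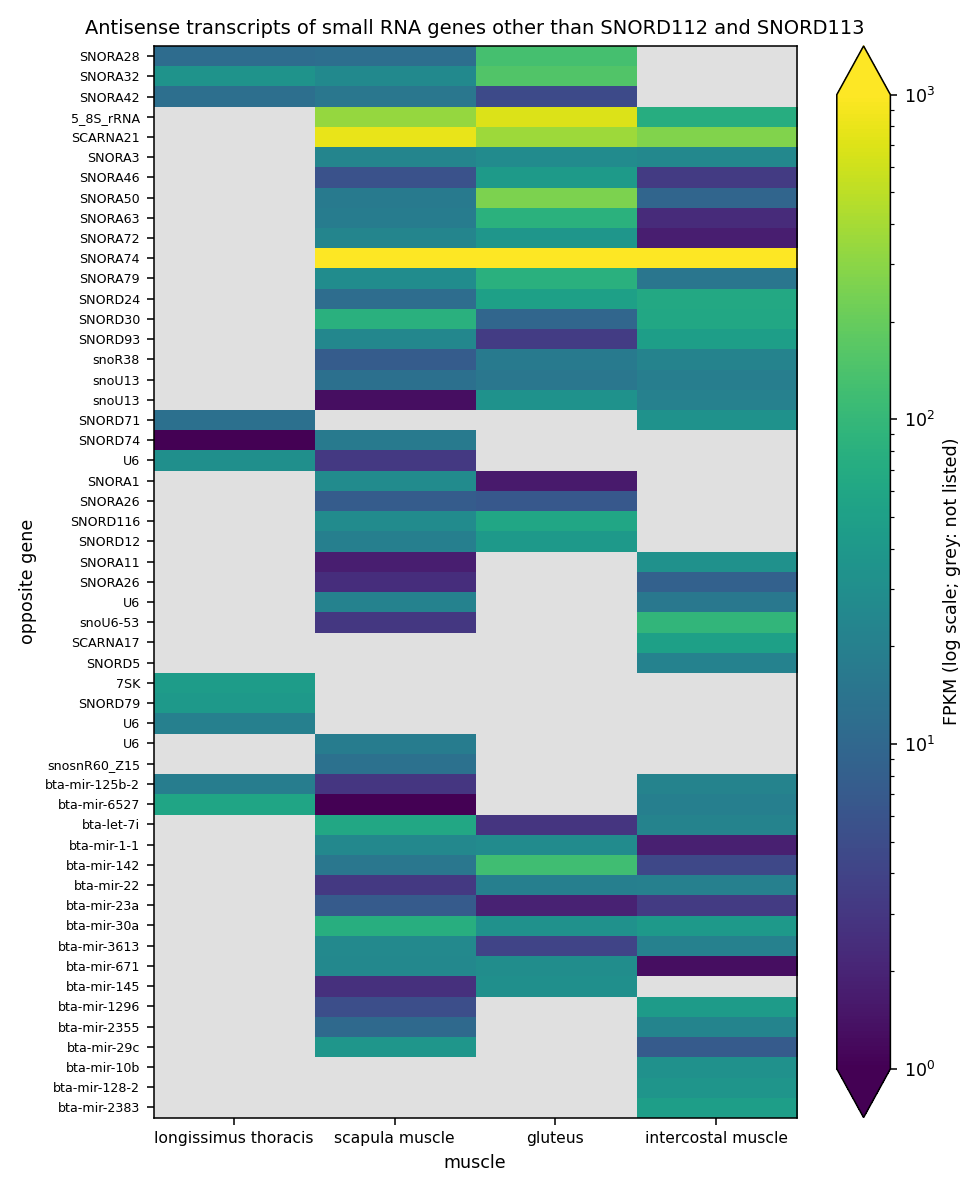
FPKM on a log colour scale (grey: not listed) of the 53 partly listed antisense transcripts of small RNA genes other than SNORD112 and SNORD113, with muscles on the horizontal axis and 1 line per transcript named by its opposite gene. The longissimus column is coloured in 11 lines, the scapula column in 44, the gluteus column in 31 and the intercostal column in 38.

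A few genes held many pieces. A single gene name held 1 partly listed transcript in 739 cases, but 18 genes held 5 or more, together 198 transcripts. CTNNA3, an alpha catenin of striated muscle cell junctions, had 50 at 47 loci, none of its antisense transcripts was listed in every muscle, and 22 were listed in the longissimus alone. Summed, the CTNNA3 pieces held 332 RPM in the longissimus (95% interval 308 to 357), 144 in the scapula muscle (125 to 164), 75.8 in the gluteus (60.5 to 93.9) and 56.1 in the intercostal muscle (44.1 to 70.5). Pieces that a muscle did not list count as 0 in these sums, so the sums carry the listing that chose the pieces and rank nothing beyond it. The pieces had a median recovered length of 216.5 bases and FPKM values from 12.2 to 133 in the longissimus.

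TIMP3, an inhibitor of matrix metalloproteinases bound to the extracellular matrix, had 36 pieces at 36 loci. They held 362 RPM in the longissimus (337 to 389), 275 in the scapula muscle (249 to 303), 20.8 in the gluteus (13.2 to 31.2) and 127 in the intercostal muscle (108 to 147), again with pieces not listed counted as 0. The longissimus listed 24, the scapula muscle 26, the intercostal muscle 12 and the gluteus 2. The highest piece listed in the scapula muscle alone was at 106 FPKM from 49 reads, with 69.1 reads expected in the longissimus. TIMP3 had 3 more antisense transcripts, which were listed in every muscle. The longest, of at least 2588 bases, stood at 270 FPKM in the longissimus (256 to 284), 534 in the scapula muscle (512 to 558), 391 in the gluteus (369 to 415) and 568 in the intercostal muscle (543 to 594). Another was at 76.2 FPKM in the longissimus, 71.0 in the scapula muscle, 5.54 in the gluteus and 18.6 in the intercostal muscle. The last was at 1.53 FPKM in the longissimus from 1 read, 25.9 in the scapula muscle, 47.2 in the gluteus and 27.3 in the intercostal muscle. The longissimus was thus lowest for 2 of these 3 transcripts and highest for the other, where its interval overlapped that of the scapula muscle.

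**Figure D5:**
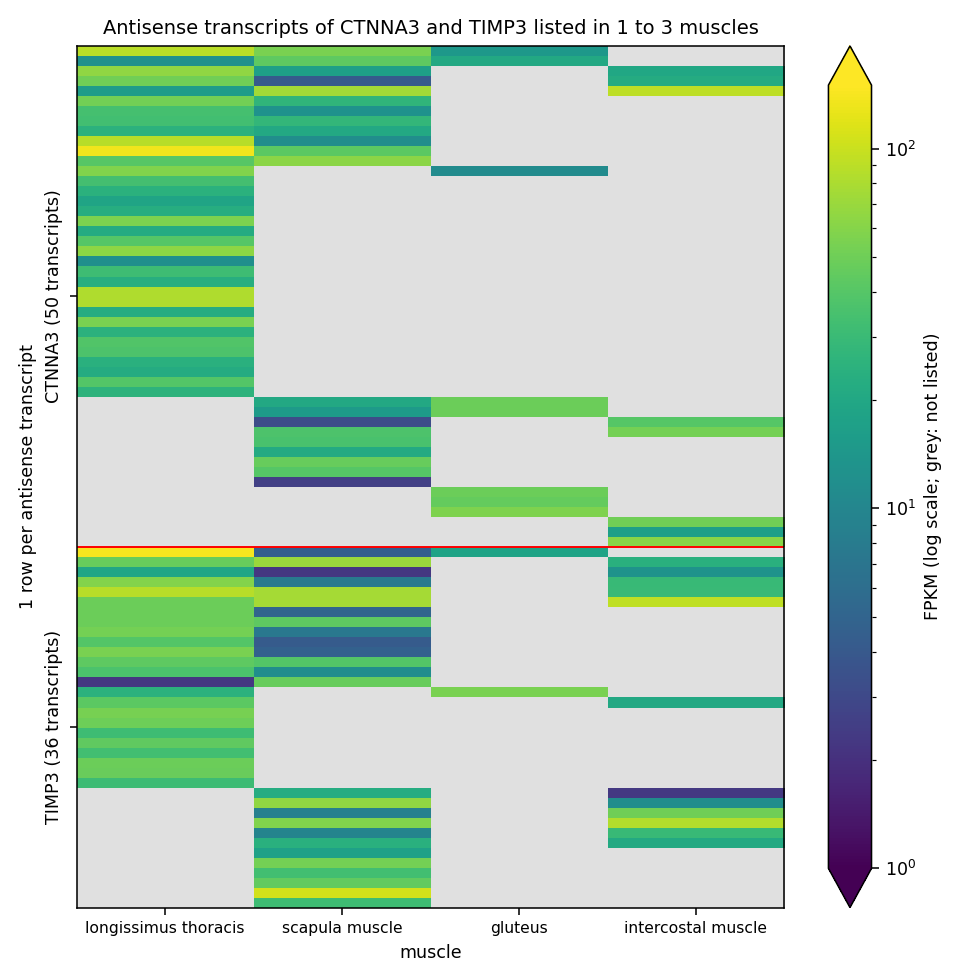
FPKM on a log colour scale (grey: not listed) of the 50 antisense transcripts of CTNNA3 and the 36 of TIMP3 that were partly listed, with muscles on the horizontal axis and 1 line per transcript, sorted by listing. For CTNNA3 35 lines are coloured in the longissimus, 21 in the scapula muscle and 8 in each other muscle, and for TIMP3 the gluteus column is coloured in 2.

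RABGAP1, a GTPase-activating protein, had 8 partly listed transcripts, which summed to 68.0 RPM in the longissimus (57.4 to 80.0), 18.5 in the scapula muscle, 6.32 in the gluteus and 6.83 in the intercostal muscle. DOCK1, an activator of RAC signalling in myoblast fusion, had 10, which summed to 10.3 RPM in the longissimus, 34.4 in the scapula muscle, 3.61 in the gluteus and 30.3 in the intercostal muscle. These sums too count pieces not listed as 0. Outside these genes the longissimus alone listed CAPRIN2, an RNA-binding protein, at 91.4 FPKM from 54 reads, with 38.3 reads expected in the scapula muscle. CTTNBP2NL, a cortactin-binding protein relative listed in every muscle but the gluteus, stood at 124.5 FPKM in the longissimus, 68.5 in the scapula muscle and 34.4 in the intercostal muscle. The longissimus interval for CTTNBP2NL, 99.0 to 154, lay just above that of the scapula muscle, 46.9 to 96.7.

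Single muscles other than the longissimus also had transcripts of their own. In the gluteus these were led by ST6GAL1, a sialyltransferase, at 156 FPKM from 22 reads, DCSTAMP, a membrane protein of osteoclast fusion, at 117 from 29 reads, and BCL2L12 at 101 from 23 reads. For DCSTAMP 55.8 reads were expected in the longissimus and 39.6 in the scapula muscle. In the scapula muscle EIF4E2, a cap-binding repressor of translation, stood at 114 FPKM from 53 reads, with 74.7 reads expected in the longissimus and 46.2 in the intercostal muscle. PAQR6, a progestin receptor family member, stood there at 78.1 FPKM from 15 reads. In the intercostal muscle KCNMB4, a subunit of calcium-activated potassium channels, stood at 91.4 FPKM from 27 reads and PECR, a peroxisomal reductase, at 84.6 from 27 reads. PECR also had another antisense transcript in the longissimus, at 33.7 FPKM, and the intercostal muscle, at 25.4.

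Pairs of muscles gave smaller sets. The scapula and intercostal muscles shared 103 transcripts listed nowhere else, the scapula muscle and gluteus 61, the longissimus and scapula muscle 55, and each other pair 25 or fewer. Besides FGF7 and SLCO5A1, XRCC6BP1 led the first of these at 128 FPKM in the scapula muscle and 60.1 in the intercostal muscle, and C9H6orf186 stood at 46.9 and 37.0, with 53.4 reads expected in the longissimus. CACUL1, a cullin-family gene, led the second at 129.9 FPKM in the scapula muscle against 456 in the gluteus, followed by MYLK4 and by ACOT2, a mitochondrial thioesterase, at 57.5 and 66.3. The longissimus and gluteus shared 24, among them GPR34, a lysophosphatidylserine receptor of microglia and macrophages, at 47.1 FPKM in the longissimus and 79.8 in the gluteus. Gluteus and intercostal muscle shared 20, with LATS2, a Hippo pathway kinase, at 93.9 and 24.5 FPKM. CYP4V2, a fatty acid hydroxylase, was at 31.0 FPKM in the longissimus and 81.8 in the gluteus, without overlap. RIMKLA stood at 44.8 FPKM in the gluteus and 31.8 in the intercostal muscle, and SFMBT2, a Polycomb group protein, at 37.5 and 29.7, with overlap in each. The longissimus and intercostal muscle shared 25, among them FBXW12, an F-box protein, at 56.6 and 23.9 FPKM and ZNF397 at 26.7 and 64.7, with overlap in each. For GPR34 the intervals overlapped, and for LATS2, 62.9 to 135 against 11.2 to 46.4, they did not.

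Where a muscle other than the longissimus was the one missing, fewer gaps were well covered. ADAM22, a receptor of the LGI proteins, was listed at 42.9 FPKM in the longissimus, 58.6 in the gluteus and 53.7 in the intercostal muscle, with overlapping intervals and 22.0 reads expected in the scapula muscle. SRP14, a subunit of the signal recognition particle, was also missing there, with 249 FPKM in the longissimus against 73.4 and 68.5 and 34.4 reads expected. These were the 2 of 19 transcripts missing in the scapula muscle alone with 20 or more reads expected. There were 2 of 61 such in the gluteus, 0 of 47 in the intercostal muscle and 73 of 215 in the longissimus. Expected reads scale with the library total, which was largest in the longissimus. ZHX2, a zinc finger and homeobox repressor not listed in the intercostal muscle, was level at 37.4, 39.0 and 43.9 FPKM in the longissimus, scapula muscle and gluteus, with 14.2 reads expected. MCPH1, the microcephalin of chromosome condensation, was at 51.3, 58.9 and 29.2 FPKM in those muscles, with overlap. ITGB3BP, a centromere protein not listed in the gluteus, was at 39.4 FPKM in the longissimus, 55.6 in the scapula muscle and 35.4 in the intercostal muscle. It had at most 9 recovered reads in a library. HYKK, the hydroxylysine kinase not listed in the scapula muscle, was at 52.5 FPKM in the longissimus, 30.6 in the gluteus and 30.8 in the intercostal muscle, with overlap.

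Levels were also compared among transcripts listed in both muscles of a pair. These were still chosen by listing, since each is listed in both and missing elsewhere. Some values are of 1 recovered read, so the counts are a description. With a change of at least 2-fold on the log2(FPKM + 1) scale as the call, 70 of 163 partly listed transcripts (42.9%) were higher in the longissimus than in the scapula muscle, against 35.1% of all transcripts listed in both. In the other direction 28 (17.2%) were higher in the scapula muscle, against 24.1%. Between longissimus and gluteus, 34 of 90 (37.8%, background 33.2%) were higher in the longissimus and 25 (27.8%, background 23.2%) in the gluteus. Between longissimus and intercostal muscle, 42 of 105 (40.0%, background 32.5%) were higher in the longissimus and 23 (21.9%, background 24.4%) in the intercostal muscle. In each of these 3 pairs more values were called higher in the longissimus than lower, as over all transcripts. The antisense transcripts listed in every muscle ran the other way: 21.1% were higher and 27.0% lower in the longissimus than in the scapula muscle, 14.4% and 24.7% against the gluteus, and 17.5% and 28.2% against the intercostal muscle.

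The other pairs were listed together more often. Between scapula muscle and gluteus, 83 of 323 (25.7%, background 29.9%) were higher in the scapula muscle and 109 (33.7%, background 25.8%) in the gluteus. Between scapula and intercostal muscle, 119 of 379 (31.4%, background 27.8%) were higher in the scapula muscle and 113 (29.8%, background 25.8%) in the intercostal muscle. Between gluteus and intercostal muscle, 93 of 254 (36.6%, background 25.4%) were higher in the gluteus and 65 (25.6%, background 28.7%) in the intercostal muscle. In both of these pairs that hold the gluteus it had more of the calls, while over all transcripts it had fewer. Among antisense transcripts listed in every muscle it also had more, 280 against 210 with the scapula muscle and 222 against 218 with the intercostal muscle. The pairs share libraries, and rescaling the libraries by the median of transcripts listed in every muscle shifted a pair by at most 0.104 on the log2 scale.

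Levels within the set were spread widely. Over the 215 transcripts missing in the longissimus alone, the median ratio of the highest to the lowest listing muscle was 4.58, with 30 within 2-fold and 63 at 10-fold or more. The median was 6.23 for the 47 transcripts missing in the intercostal muscle alone, 5.02 for the 61 missing in the gluteus alone, 4.09 for the 19 missing in the scapula muscle alone and 2.95 for the antisense transcripts of every muscle, whose ratio is over 4 muscles. Median recovered reads per listed value were 11 to 15 in the partly listed set and 105 to 167 in the antisense transcripts of every muscle. Their part in the ratios was not tested. The highest of the 215 was in the gluteus for 88, in the scapula muscle for 64 and in the intercostal muscle for 63.

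Other transcripts of the same locus or gene were also counted. This again reads listing, and some of the partners are antisense transcripts of the set, so the counts are a description. At 141 of the 1096 (12.9%), another transcript of the same locus was listed in a muscle that did not list the antisense transcript, and for 561 another transcript of the same gene name was. A locus held another transcript of any class for 15.6% of the partly listed and 23.5% of the antisense transcripts of every muscle. At 33 loci 2 or more of the set lay together, 67 in all, and their patterns could differ. At SIM1, a transcription factor gene, 1 transcript was listed in the longissimus (26.2 FPKM) and intercostal muscle (21.2 FPKM) and the other in the scapula muscle alone (59.9 FPKM). At YARS2, the mitochondrial tyrosyl-tRNA synthetase, 1 was listed in the longissimus (37.4 FPKM) and gluteus (24.8 FPKM) and the other in the scapula muscle (27.5 FPKM) and intercostal muscle (1.85 FPKM, 1 read). The YARS2 listings shared no muscle, while neither SIM1 transcript was listed in the gluteus. At its lowest level the second YARS2 transcript had 1.62 reads expected in the longissimus and 0.840 in the gluteus, so its gaps are not read as differences. These genes were picked after their values were seen.

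For genes of the 215 transcripts missing in the longissimus alone, 15 also had antisense transcripts in every muscle, 23 transcripts in all. Of those 23, 9 (39.1%) were at least 2-fold lower in the longissimus than the median of the other muscles. Over the 1420 antisense transcripts of every muscle the share was 25.6%. In the other direction 3 of the 23 were 2-fold higher, against 15.5% of the 1420. The median log2 ratio of the longissimus to the other muscles was -0.122 for the 23 and -0.028 for the 1420. Some genes hold several of the 23, so a lower longissimus is not read from these shares. The second antisense transcript of COQ4 stood at 44.7 FPKM in the longissimus (35.6 to 55.5), 143 in the scapula muscle, 138 in the gluteus and 296 in the intercostal muscle, so the longissimus was lowest there with no overlap. A second transcript named SNORA74 stood at 197 FPKM in the longissimus against 9977, 9183 and 6128 in the same order, and 3 more across from 5_8S_rRNA stood between 17.1 and 20.5 FPKM in the longissimus and between 235 and 1395 elsewhere. Those across from 5_8S_rRNA had nearly equal values and may share reads, yet they count as 3 of the 9 lower transcripts. SKIV2L2, an RNA helicase of the exosome, had 6 such transcripts with differing orders, 1 of which was highest in the longissimus at 205 FPKM against 95.1, 51.9 and 7.27.

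Transcripts in introns of the same genes were listed as follows. Of 249 intronic transcripts of the genes of the 215, the longissimus listed 39.4%, against 46.5% of all intronic transcripts. The scapula muscle listed 59.4% against 58.0%, the gluteus 27.3% against 28.1% and the intercostal muscle 43.4% against 38.6%. For the genes of the 162 transcripts of the longissimus alone, it listed 54.9% of 697 intronic transcripts, and the scapula muscle listed 45.8%. For genes of the other patterns that leave out the longissimus, it listed 57.2% for the gluteus alone, 54.5% for the scapula muscle with the gluteus, 53.8% for the scapula with the intercostal muscle, 48.6% for the scapula muscle alone, 47.3% for the intercostal muscle alone and 40.5% for the gluteus with the intercostal muscle. The share listed by the longissimus thus varied among genes whose antisense transcript it did not list, and reached that of its own genes. These shares count transcripts, of which some genes hold many.

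Just outside the set stood antisense transcripts listed in every muscle with 1 read in a library: 19 with 1 read in the longissimus, 11 in the scapula muscle, 16 in the gluteus and 13 in the intercostal muscle. The highest were CD81, EMC3 and TCF25, each with its 1 read in the longissimus. EMC3, a subunit of the membrane protein insertase of the endoplasmic reticulum, stood at 1.77 FPKM there against 272 in the scapula muscle, 392 in the gluteus and 329 in the intercostal muscle. TCF25, a factor of ribosome quality control, stood at 0.368 against 142, 202 and 113 in the same order. Just inside the set, 26 of the values listed in the longissimus, 67 in the scapula muscle, 53 in the gluteus and 58 in the intercostal muscle were of 1 recovered read. Recovered reads inside the set are lower bounds, so how many of these transcripts hang on 1 read is not known.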

How the data were processed

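Per the labels, total RNA of 3 animals was pooled for each of 4 muscles, and 1 library was made per muscle. The deposited FPKM values were made by the authors. The submitters' processing notes name the build UMD3.1 and the tools Cufflinks 2.1.1 and TopHat2 2.0.9. For strand setting, filters and annotation, nothing is given in the sources used here. Only values above 0 are listed.

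Library totals, read numbers and lengths were recovered from the 115374 FPKM values. They are the smallest whole numbers that give each value within a relative error of 1e-11, with lengths up to 10000 bases. Recovery of the totals and of the ratio of reads to length was tested on simulated data. Read numbers and lengths by themselves were not tested, and no simulated length was as small as the smallest recovered ones. Poisson intervals are at 95%. Analyses used Python 3.11.15, numpy 2.4.6, pandas 2.3.3, scipy 1.17.1 and matplotlib 3.10.9.

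With 1 library per muscle no test was made. A level was called different at 2-fold, on log2(FPKM + 1). The members, the 20 gene and cell type marker lists and the comparisons were chosen with earlier results of these data known. Text names the 3 highest transcripts with a symbol per pattern, members of the position, growth factor, myogenic and marker lists with 20 reads, the 5 transcripts per muscle with the most reads expected where not listed, and the 3 highest just outside; other genes were chosen after their values were seen. Gene names were matched to the RefSeq table of assembly ARS-UCD2.0 for names and biotypes only. Alternatives were a pseudocount of 0.1, a filter at 10 reads, 10 expected reads, the median of listing libraries, rescaled libraries, 1 transcript per gene and other definitions of a partner transcript. Of the transcripts with 50 or more expected reads, 1 with a symbol is not reported here.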

Additional observations from a re-analysis of the deposited data

How the results depend on the processing

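Most gaps outside the longissimus had under 10 reads expected at the recovered lengths, which are lower bounds. With 10 in place of 20 expected reads, the well covered gaps were 353 in the longissimus, 166 in the scapula muscle, 144 in the gluteus and 177 in the intercostal muscle, as a lower threshold must give more. With the median of the listing libraries in place of the lowest they were 320 in the longissimus, 45 in the gluteus and 68 in the intercostal muscle. Counting partner transcripts by gene name gave 561, and antisense partners at the locus alone gave 65. Transcripts listed in 1 muscle numbered 252 with 10 or more reads in a library and 300 with 1 transcript per gene, and the longissimus then listed 260. All 48 counts of 2-fold calls between muscles under 4 alternatives, and all counts and values under rescaled libraries, stayed within 1.5 times the reported value. No paired analysis was possible because each muscle has 1 pooled library. No library could be left out, since each group has 1.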
